A study of Rattus norvegicus with 11 samples.

Results

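The genes described here are 4 of the 32883 Ensembl genes counted in each rat, picked by identifier. They are the exchange factor genes Rasgrp3 (ENSRNOG00000032703) and Rasgrp2 (ENSRNOG00000021098) and the GTPase genes Hras (ENSRNOG00000016611) and Nras (ENSRNOG00000023079). All 4 passed the filter on low values, a mean of at least 1 CPM, in every comparison. Poly(A) RNA of the corpora quadrigemina, the inferior and superior colliculi of the midbrain, was sequenced in 11 male rats aged 4 months. Of these, 3 were KM rats, a strain bred from Wistar stock and labelled prone to audiogenic epilepsy, that is, to convulsions set off by loud sound. A further 4 were “0” rats (titled O in the labels), bred from KM x Wistar hybrids for lack of such seizures and labelled less prone. The remaining 4 were W rats, outbred Wistar animals labelled wild type, from which responders to sound had been left out. The strain label of all 11 rats is wistar. The study's methods state that sound was played to every group 4 days before the tissue was taken, and that KM and “0” rats had been tested at a younger age, the “0” rats repeatedly. Some animals of the “0” line still respond to sound, but the paper states that the “0” rats sequenced, like the W rats, were non-responders. Breeding line, seizure history and number of sound tests therefore differ together between the groups and cannot be told apart.

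Ras proteins are small GTPases at the inner face of the cell membrane that signal while they hold GTP and stop when they have cleaved it to GDP. Exchange factors load them with GTP. Several of the RasGRP family are recruited to membranes by diacylglycerol, and some of the family sense calcium. In these ways they can join phospholipase C signalling to small GTPases. GTP-bound Ras activates Raf kinases, which start the MEK and ERK steps of the MAP kinase cascade. RasGRP3 activates both Ras and the related GTPase Rap1 and is known from endothelial cells and B cells. RasGRP2, also called CalDAG-GEFI, acts mainly on Rap1 and is known from platelets and from neurons of the striatum. H-Ras and N-Ras are nearly identical in the part that binds GTP and differ mainly in their C-terminal tail, which sets where they sit in the membrane.

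The regulatory windows in front of the 4 genes are shown because these are the sequences next to which their transcription starts. Each runs over the 250 bases before the transcription start that RefSeq gives in GRCr8, 5′ to 3′ on the strand of the gene, and all 4 genes were found in the table. The counts were made on another build, Rnor_6.0, and a start used in the colliculi may differ from the one shown. The window of Rasgrp3 lies at chr6:25710592-25710841 on the minus strand, that of Rasgrp2 at chr1:213136484-213136733 on the plus strand, that of Hras at chr1:205729255-205729504 on the minus strand and that of Nras at chr2:193271220-193271469 on the plus strand. Capitals mark every match, on either strand, to the GC box GGGCGG, the CCAAT box CCAAT, the TATA box TATAAA, the ETS site CCGGAAGT and the E-box CACGTG.
Rasgrp3: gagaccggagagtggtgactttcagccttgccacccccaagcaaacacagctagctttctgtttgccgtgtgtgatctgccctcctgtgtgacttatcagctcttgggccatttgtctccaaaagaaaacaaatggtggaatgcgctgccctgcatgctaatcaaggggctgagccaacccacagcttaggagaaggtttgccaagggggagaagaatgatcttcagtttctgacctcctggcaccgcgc
Rasgrp2: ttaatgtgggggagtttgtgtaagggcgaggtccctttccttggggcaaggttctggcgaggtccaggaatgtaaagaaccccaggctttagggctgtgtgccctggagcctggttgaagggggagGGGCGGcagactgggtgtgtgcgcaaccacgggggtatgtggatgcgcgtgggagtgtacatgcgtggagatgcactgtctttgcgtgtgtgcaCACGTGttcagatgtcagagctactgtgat
Hras: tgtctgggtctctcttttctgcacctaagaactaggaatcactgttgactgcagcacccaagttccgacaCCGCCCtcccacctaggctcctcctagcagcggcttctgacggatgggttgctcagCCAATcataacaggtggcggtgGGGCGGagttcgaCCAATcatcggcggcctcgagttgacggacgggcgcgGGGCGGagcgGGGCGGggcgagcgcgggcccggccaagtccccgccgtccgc
Nras: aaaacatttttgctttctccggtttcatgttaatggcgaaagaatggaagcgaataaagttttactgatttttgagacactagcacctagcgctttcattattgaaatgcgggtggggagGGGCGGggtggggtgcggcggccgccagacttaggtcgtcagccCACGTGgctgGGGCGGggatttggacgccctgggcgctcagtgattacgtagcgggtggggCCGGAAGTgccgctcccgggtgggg
The window of Hras was the richest in G and C of these, with 65.6% and 24 CG pairs, and held 4 GC boxes and 2 CCAAT boxes. That of Nras had 57.2% G and C with 19 CG pairs and held 2 GC boxes, 1 ETS site and 1 E-box. The exchange factor genes had fewer CG pairs, 10 for Rasgrp2 and 5 for Rasgrp3, against a median of 5.0 over 33469 rat promoters. The window of Rasgrp2 held 1 GC box and 1 E-box, and that of Rasgrp3 held none of these letters. Over all promoters of the same length 30.5% held a GC box, 34.0% a CCAAT box, 12.9% the TATA letters, 3.1% the ETS letters and 5.59% the E-box. No match to the TATA letters stands in any of the 4 windows, which says nothing about the factors that bind there.

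Library sizes, taken as the reads on genes, ran from 10545964 to 15140180. The 4 genes were covered by 92 to 1092 reads each, and the lowest of these counts, for Nras in “0” 3, gave 8.26 CPM before scaling with a 95% Wilson interval from 6.73 to 10.1, which covers counting error only. CPM here are read counts brought to a common library total with TMM scaling. Library “0” 3 stood apart in its composition, with 29.2% of its reads on its 10 top genes against 7.94% to 19.0% in the other rats, and its TMM factor was 0.814. Library KM 3 stood apart in choroid plexus genes, with a sum of 7008 CPM over 6 of them against 15.0 to 68.1 CPM in the other rats. Of 89 marker symbols only 20 could be matched to an identifier, none of them for neurons, so the labelled tissue was not checked against neuronal markers. Fewer cells of a type and less RNA per cell cannot be told apart in such bulk samples.

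The mean levels of the genes moved in opposite directions within each family. Rasgrp3 and Nras had their highest levels in KM rats, and Rasgrp2 and Hras had their lowest mean there. The deviations of Rasgrp2 and Hras from their strain means correlated at 0.704, so their differences are not independent observations. For the other pairs of these genes this correlation ran from −0.0872 to 0.425. Between KM and W rats 3 of the 4 genes passed an unadjusted p of 0.05 in the quasi-likelihood F-test (QLF test) of edgeR, Rasgrp3 higher and Rasgrp2 and Hras lower in KM rats. This threshold, the one used in the study, passed 10.9% of the 13721 genes tested. In KM vs “0” 3 of the 4 genes passed it, Rasgrp3 and Nras higher and Rasgrp2 lower in KM rats, where it passed 3.65% of all genes. In “0” vs W it passed Rasgrp3 alone among these genes and 6.69% of all genes. After Benjamini-Hochberg adjustment over all genes the QLF test left 0 of the 4 genes under 0.05 in each comparison, where the share of all genes that passed was 0.0656% between KM and W, 0.0146% between KM and “0” and 0.11% between “0” and W rats. The Wald test of DESeq2 on the same genes gave 1 of the 4 in KM vs W, Rasgrp3 with an adjusted p of 5.44e-05, and 0 in each of the other comparisons. Among all genes with an adjusted p that test passed 1.07% between KM and W, 0.293% between KM and “0” and 0.873% between “0” and W rats. At the unadjusted threshold it gave 3, 3 and 1 of the 4 genes, against 10.8%, 3.71% and 6.78% of all genes. The comparisons share rats, so they are not independent of each other. The 4 genes were chosen with earlier results of these data known, so these counts describe them and do not test them. A p value of either model sets a strain difference against the spread between these rats, which the model estimates with the help of all genes. An exact permutation test over the rats, added after seeing the data, is given for each gene below. It was made two-sided by doubling the smaller tail. In that form its lowest possible p is 0.0571 with 3 KM rats against 4 others and 0.0286 with 4 against 4.

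**Figure D1:**
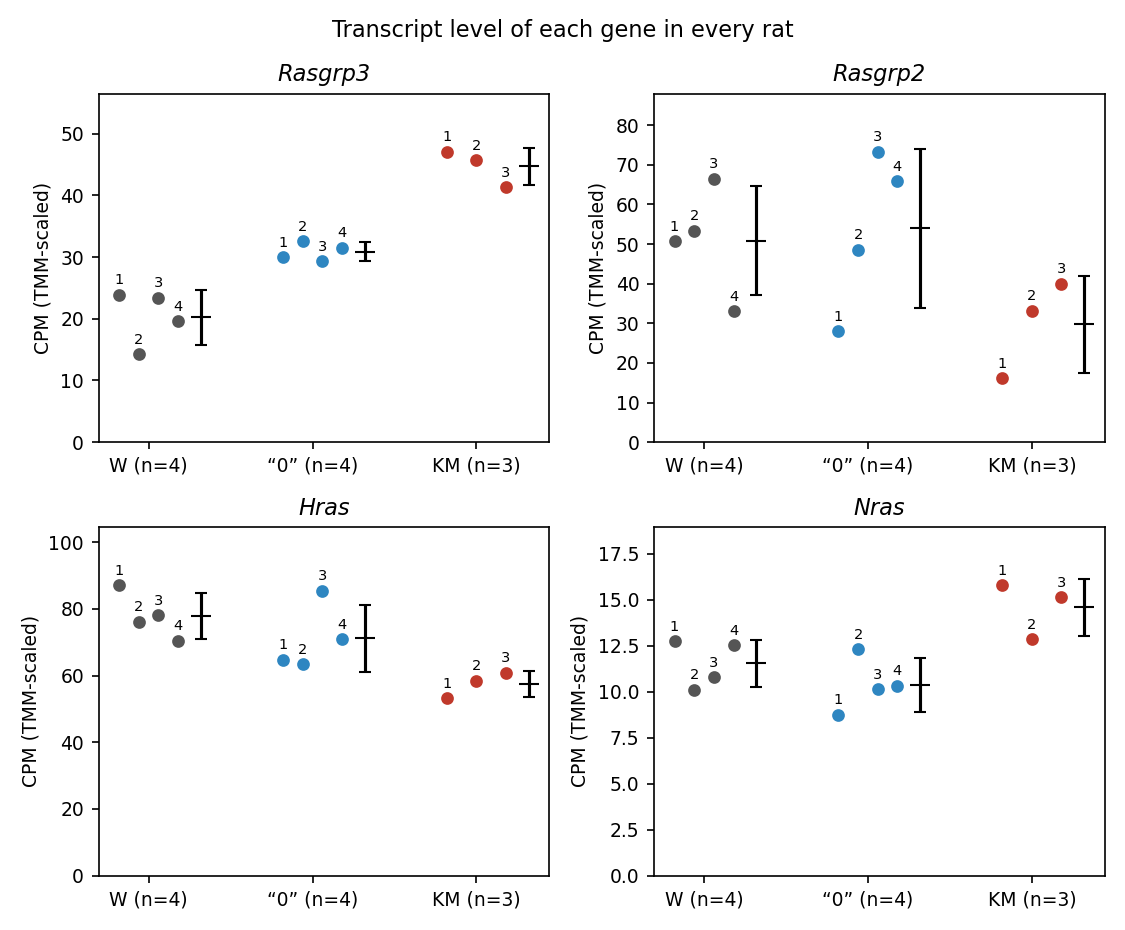
TMM-scaled CPM of the 4 genes in every rat, numbered within its strain, with the mean ± SD of the strain beside the points. Rasgrp3 steps up from W through “0” to KM without overlap, while Rasgrp2 spreads from 16.2 to 40.0 CPM among the KM rats alone.

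Rasgrp3, the exchange factor for Ras and Rap1, was ordered W, “0”, KM. It had 47.1, 45.7 and 41.3 CPM in KM 1 to 3. The “0” rats had 30.0, 32.6, 29.3 and 31.5 CPM. The W rats had 23.9, 14.2, 23.4 and 19.6 CPM. The 3 strains did not overlap at any point of this order, and the “0” rats lay close together with a range of only 1.11-fold against 1.68-fold among the W rats. The strain means were 44.7 ± 3.02 (SD, n = 3) in KM, 30.9 ± 1.49 (SD, n = 4) in “0” and 20.3 ± 4.46 (SD, n = 4) in W rats. Rasgrp3 was 2.22-fold higher in KM than in W rats, with a 95% interval from 1.66 to 2.97, and ranked 23 of 13721 genes by p (edgeR QLF test, unadjusted p = 0.000199, adjusted p = 0.116). It was 1.46-fold higher in KM than in “0” rats (interval 1.18 to 1.81, unadjusted p = 0.00315, adjusted p = 0.797, edgeR). It was 1.51-fold higher in “0” than in W rats (interval 1.17 to 1.96, unadjusted p = 0.00513, adjusted p = 0.399, edgeR). The exact permutation test gave 0.0571 for both KM comparisons and 0.0286 for “0” vs W. Each is the smallest p that its doubled form can give. The unadjusted p of the QLF test stayed under 0.05 in all 3 comparisons whichever rat was left out, with highest values of 0.00122, 0.0181 and 0.0151. Neither the order of “0” and W nor its gap rested on 1 rat, but the absence of overlap between them did rest on the scaling. Before TMM scaling “0” 3 had 23.9 CPM and W 1 had 24.1 CPM, while the KM rats, at 46.0 to 49.5 CPM, stayed apart from all others.

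Flt1, Kdr, Tek and Emcn, the 4 endothelial genes that could be matched, all passed the unadjusted threshold in KM vs W, with higher levels in KM rats by 0.36 to 0.84 on the log2 scale against 1.15 for Rasgrp3. These 4 of 12 listed genes could be matched because they stand in a table of genes that differ. Their number and direction therefore are no independent evidence. Over all genes the threshold passed 10.9% in KM vs W. Flt1, Kdr and Tek encode receptors through which blood vessels respond to growth factors, and Emcn encodes a surface glycoprotein of the vessel wall. Their summed level was 187 to 204 CPM in KM, 174 to 201 in “0” and 124 to 157 CPM in W rats. Both selected strains thus lay above the W rats and overlapped with each other. Per 100 CPM of this sum Rasgrp3 had 21.7 to 25.1 CPM in KM, 15.8 to 17.4 in “0” and 11.4 to 16.9 CPM in W rats. On this footing the KM rats still did not overlap with either other strain, while the “0” and W rats did overlap. Flt1 made up most of the endothelial sum, with a mean of 115 CPM in KM rats. Its change in KM vs W was the smallest of the 4. Against Flt1 or Tek alone the KM rats also stayed apart. Against Emcn alone they overlapped with both strains. KM 2 had 45.7 CPM of Rasgrp3 and 14.4 of Emcn, “0” 4 had 31.5 and 6.96, and W 1 had 23.9 and 6.81. Against Kdr alone the KM rats overlapped with the “0” rats only. In KM vs “0” the endothelial genes differed by 0.01 to 0.26 on the log2 scale, while Rasgrp3 differed by 0.54. The QLF test of edgeR passed 0 of the 4 at the unadjusted threshold there, against 3.65% of all genes. In “0” vs W all 4 passed it, against 6.69% of all genes, with differences of 0.34 to 0.58 beside 0.60 for Rasgrp3. The part of endothelial cells in the level of Rasgrp3 was not tested. Ptprc, the pan-leukocyte gene and the only matched one of 8 listed for B cells and other leukocytes, had 2.49 to 4.86 CPM in KM, 1.51 to 3.51 in “0” and 1.04 to 2.22 CPM in W rats. The KM and W rats differed in it by 1.16 on the log2 scale, as much as in Rasgrp3 (edgeR QLF test, unadjusted p = 0.0114, adjusted p = 0.361), and in KM vs “0” it was 0.59 (unadjusted p = 0.158, adjusted p = 0.987, edgeR). Tmem119, the only matched one of 6 microglial markers, had 22.6 to 27.1 CPM in KM, 14.9 to 25.1 in “0” and 15.7 to 20.1 CPM in W rats. Between KM and W rats it differed by 0.49 on the log2 scale, without overlap (edgeR QLF test, unadjusted p = 0.00769, adjusted p = 0.334), and between KM and “0” rats by 0.33 (unadjusted p = 0.146, adjusted p = 0.987, edgeR). The part of leukocytes and microglia in the level of Rasgrp3 was not tested.

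Rasgrp2, the exchange factor that acts mainly on Rap1, had its lowest mean in KM rats and a wide spread in every strain. It had 16.2, 33.1 and 40.0 CPM in KM 1 to 3. The “0” rats had 28.0, 48.5, 73.3 and 65.8 CPM. The W rats had 50.7, 53.4, 66.4 and 33.1 CPM. All 3 strains overlapped, and KM 1 was the lowest of all rats. The means were 29.8 ± 12.2 (SD, n = 3), 53.9 ± 20.2 (SD, n = 4) and 50.9 ± 13.7 CPM (SD, n = 4) in KM, “0” and W rats. The fall against W was 0.77 on the log2 scale, a fold of 0.586 with a 95% interval from 0.352 to 0.976 (edgeR QLF test, unadjusted p = 0.0419, adjusted p = 0.447). Against “0” rats the fold was 0.554 with an interval from 0.309 to 0.995 (unadjusted p = 0.0486, adjusted p = 0.987, edgeR). Without KM 1 the unadjusted p rose to 0.107 against W and 0.151 against “0” in the QLF test of edgeR, and with 1 rat left out it stayed under 0.05 in only 2 of 7 fits of either comparison. An exact permutation test gave 0.171 for both KM comparisons. “0” and W rats differed by 0.07 on the log2 scale, with an interval from a fold of 0.667 to 1.66 that leaves a sizeable difference possible either way.

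The spread of Rasgrp2 within strains was large for a gene of its level. Its standard deviation around the strain means was 0.57 on the log2 scale, higher than that of 94.6% of the 4468 genes with a mean CPM within a factor of 2 of its own, whose median was 0.23. For Rasgrp3 this standard deviation was 0.22, for Nras 0.18 and for Hras 0.15, each under the median of its own group of like genes. Among genes with a symbol Drd2, encoding the D2 dopamine receptor, had the profile over the 11 rats most like that of Rasgrp2, with a Pearson correlation of 0.975 in log2 CPM, which ranked 2 of 13693 genes. Drd2 had 4.70, 15.2 and 21.7 CPM in KM 1 to 3. The “0” rats had 13.7, 30.1, 40.0 and 36.3 CPM of Drd2. The W rats had 21.3, 24.6, 36.7 and 16.0 CPM of it. KM 1, “0” 1 and W 4 were the lowest of their strain for both genes, and the correlation of the deviations from the strain means was 0.968. Cbarp, whose product regulates calcium channels, and Adra1b, an adrenergic receptor gene, came next with 0.971 and 0.964 over the 11 rats. These likenesses are descriptions over 11 libraries that share their tissue dissection and scaling, taken as the best among many genes. Markers listed for striatal neurons and for platelets could not be matched to identifiers, so their levels beside Rasgrp2 were not examined.

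**Figure D2:**
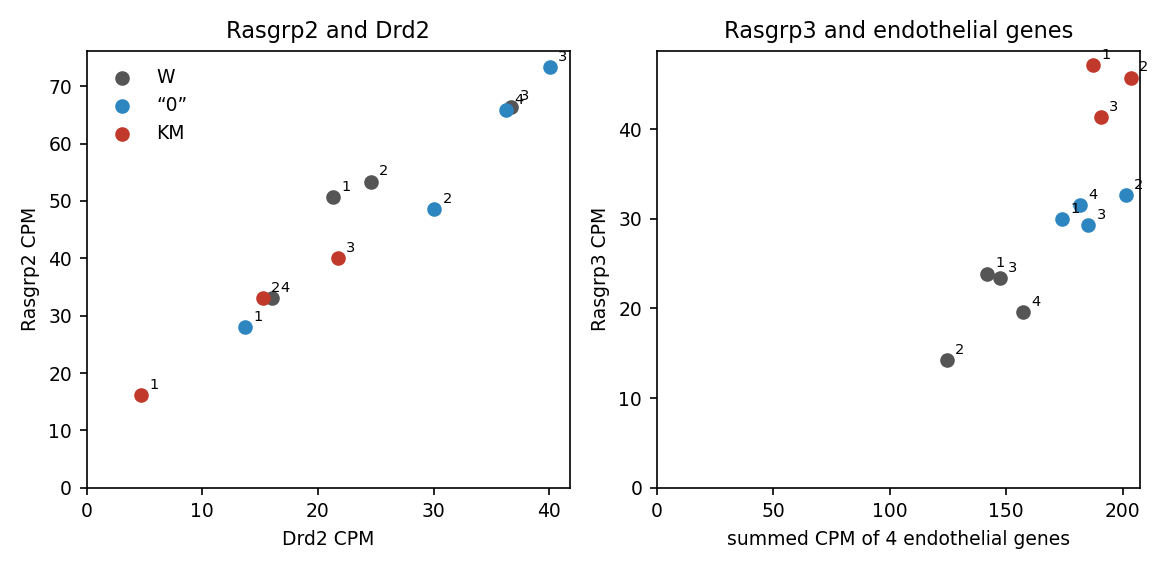
Left, CPM of Rasgrp2 against CPM of Drd2 in each of the 11 rats. Right, CPM of Rasgrp3 against the summed CPM of 4 endothelial genes, with rats numbered within their strain. On the left the rats of all strains lie along 1 line from KM 1 to “0” 3, and on the right the KM and “0” rats have similar endothelial sums but separate in Rasgrp3.

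For the other genes the best matches over the 11 rats were as follows. Rasgrp3 was most like Anxa9, an annexin gene of very few reads with 0.153 to 0.961 CPM in W and 2.55 to 3.55 CPM in KM rats, at a correlation of 0.975. Otud7b, a deubiquitinase gene, followed at 0.972 and the junction protein gene Pkp4 at 0.954. These 3 ranked first among all 13693 genes, and their deviations within strains still correlated with those of Rasgrp3 at 0.79 to 0.94. Hras was most like Fv1 at 0.942, Vps35l at 0.933 and the Src-family kinase gene Lck at 0.933. Nras had the weakest best matches, with Nkiras1, the gene of a Ras-like inhibitor of NF-κB signalling, at 0.902, AABR07033887.1 at 0.887 and the tubulin tyrosine ligase gene Ttl at 0.858. Only 1758 of the ranked genes carry a symbol, nearly all of them from a table of genes that differ between strains.

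Hras, which encodes the palmitoylated GTPase H-Ras, was lowest in KM rats. It had 53.2, 58.5 and 60.8 CPM in KM 1 to 3. The “0” rats had 64.8, 63.4, 85.4 and 71.0 CPM. The W rats had 87.2, 76.2, 78.1 and 70.5 CPM. Every KM rat lay below every other rat, and the “0” and W rats overlapped. The means were 57.5 ± 3.93 (SD, n = 3), 71.2 ± 10.1 (SD, n = 4) and 78.0 ± 6.90 CPM (SD, n = 4) in KM, “0” and W rats. The fold in KM vs W was 0.740 with a 95% interval from 0.620 to 0.885 (edgeR QLF test, unadjusted p = 0.00432, adjusted p = 0.320). In KM vs “0” it was 0.813 with an interval from 0.644 to 1.03 (unadjusted p = 0.0758, adjusted p = 0.987, edgeR). “0” and W rats differed by a fold of 0.906 with an interval from 0.743 to 1.11. The exact permutation test gave the smallest p its doubled form can give, 0.0571, for both KM comparisons and 0.314 for “0” vs W. The separation of KM rats from the others rested on the scaling, since before TMM scaling KM 3 had 67.7 CPM, above the 64.7 CPM of W 4 and the 62.7 CPM of “0” 1. The direction against W was the same in all fits that left out 1 rat, with an unadjusted p of at most 0.0156 in the QLF test of edgeR.

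Nras, which encodes N-Ras and had the lowest counts of the 4 genes, was highest in KM rats. It had 15.8, 12.8 and 15.1 CPM in KM 1 to 3. The “0” rats had 8.75, 12.3, 10.1 and 10.3 CPM. The W rats had 12.7, 10.1, 10.8 and 12.5 CPM. The KM rats did not overlap with either strain, but KM 2 lay only just above the highest W rat, and the “0” and W rats overlapped. The means were 14.6 ± 1.55 (SD, n = 3), 10.4 ± 1.47 (SD, n = 4) and 11.5 ± 1.29 CPM (SD, n = 4) in KM, “0” and W rats. The fold was 1.41 in KM vs “0” with a 95% interval from 1.05 to 1.89 (edgeR QLF test, unadjusted p = 0.0254, adjusted p = 0.987). In KM vs W it was 1.27 with an interval from 0.997 to 1.62 (unadjusted p = 0.0527, adjusted p = 0.467, edgeR). “0” and W rats differed by a fold of 0.895 with an interval from 0.694 to 1.16. The exact permutation test gave the smallest p its doubled form can give, 0.0571, for both KM comparisons and 0.229 for “0” vs W. The unadjusted p against “0” rats rose above 0.05 when KM 1, KM 3, “0” 1 or “0” 3 was left out, with a highest value of 0.0838 in the QLF test of edgeR. How reads shared by near-identical Ras genes or their processed copies were treated is not given in the sources used here, which leaves the levels of Hras and Nras uncertain to that extent.

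**Figure D3:**
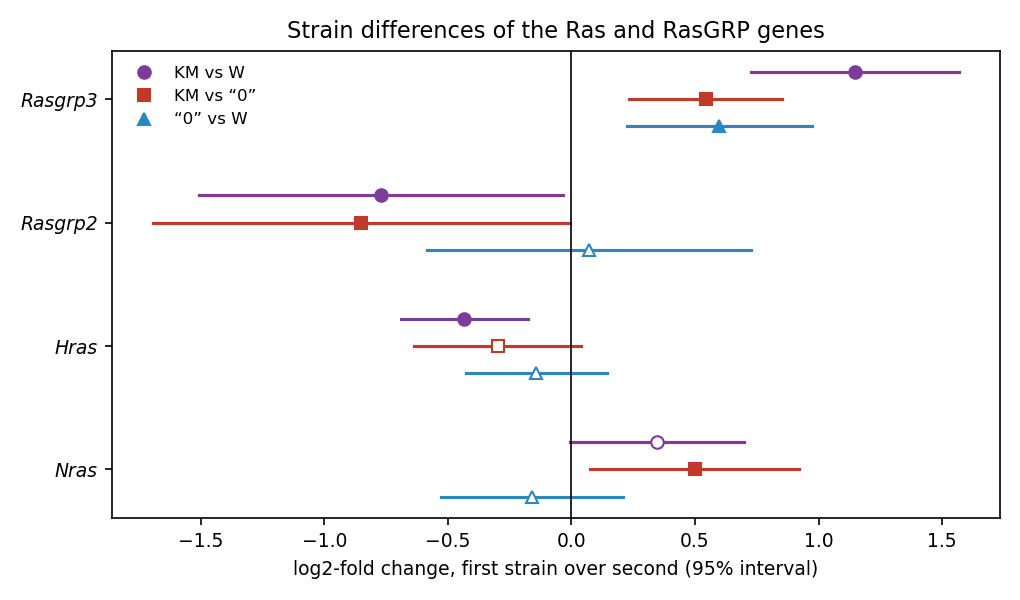
Log2-fold change of the 4 genes with its 95% interval for each pair of strains. Filled symbols passed an unadjusted p of 0.05. Rasgrp3 is to the right of 0 in all 3 comparisons, and the intervals of Rasgrp2 in both KM comparisons nearly reach 0.

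Counted as whole strains, 3 of the 4 genes had no overlap between KM and W rats, where 11.6% of all genes tested had none, and the exception was Rasgrp2. The same 3 had no overlap between KM and “0” rats, against 4.63% of all genes. Between “0” and W rats only Rasgrp3 had none, against 4.32%. The 4 genes were proposed with results of these rats known, so these shares describe them and do not test them.

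The ratio of 2 genes within a rat does not depend on how libraries are scaled to each other. Rasgrp3 had 2.91, 1.38 and 1.03 reads per read of Rasgrp2 in KM 1 to 3. In the “0” rats the ratio was 1.07, 0.672, 0.400 and 0.479. In the W rats it was 0.471, 0.267, 0.352 and 0.593. Every KM rat thus had more reads of Rasgrp3 than of Rasgrp2 and every W rat had fewer, while “0” 1 reached the KM range. Hras had 3.36, 4.55 and 4.02 reads per read of Nras in KM 1 to 3. The “0” rats had 7.41, 5.15, 8.42 and 6.87, and the W rats 6.84, 7.55, 7.23 and 5.63. The KM rats lay below all 8 other rats in this ratio, with a mean of 3.98 ± 0.595 (SD, n = 3) against 6.96 ± 1.37 (SD, n = 4) in “0” and 6.81 ± 0.838 (SD, n = 4) in W rats. Transcript lengths enter these ratios, so that they order rats and not the genes within a rat.

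**Figure D4:**
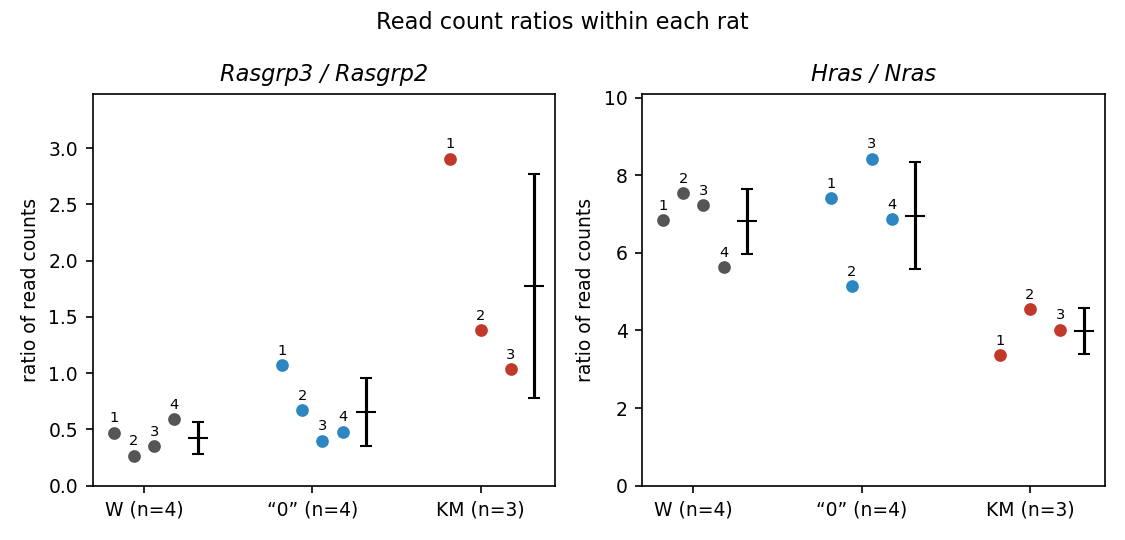
Read count ratios Rasgrp3 / Rasgrp2 and Hras / Nras in every rat, numbered within its strain, with the strain mean ± SD. The Hras / Nras ratio is 3.36 to 4.55 in KM rats and 5.15 to 8.42 in the other rats.

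A compensation coefficient, as defined in the study, gives the KM minus “0” difference of mean log2 CPM as a percentage of the KM minus W difference. It was 45.7% for Rasgrp3, with 38.8 to 52.0 over the “0” rats taken singly. For Hras it was 68.5, ranging from 32.8 to 131. Rasgrp2 had 104 with a range from 1.18 to 169, and Nras had 146 with a range from 70.2 to 215. All 4 “0” rats thus lay near the middle between the KM and W means for Rasgrp3. For each other gene at least 1 “0” rat lay past the W mean, and for Rasgrp2 another lay at the KM mean. The KM mean enters both differences, and no test was made of the coefficient.

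The pathway around these genes was described from lists of 95 symbols, of which 14 could be matched to an identifier. Nearly all of them stand in a table of genes that differ, so their counts are not independent evidence. The 14 include the 4 genes above. The QLF test of edgeR passed 8 of the 14 at an unadjusted p of 0.05 between KM and W rats, 3 higher and 5 lower in KM. It passed 6 between KM and “0” rats, 4 higher and 2 lower in KM, and 5 between “0” and W rats, 1 higher and 4 lower in “0”. Over all genes the same threshold passed 10.9%, 3.65% and 6.69%. The first count fell to 5 when KM 1, KM 2, W 1 or W 2 was left out, and the second to 2 without “0” 3 and 3 without KM 1. The median log2-fold changes of the 14 genes were −0.25, 0.17 and −0.07, against 0.01, 0.01 and −0.01 over all genes tested. The lowest adjusted p among the 14 in any comparison of that test was 0.0724, so 0 of them passed after adjustment. None of the 9 listed Raf, MEK and ERK kinases could be matched, and Rras, Mras, Rasgrp1 and Rasgrp4 could not be matched either.

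Among the upstream genes, Rasgrf1, a calcium-responsive exchange factor of neurons, had 668 CPM on average in KM, 954 in “0” and 953 in W rats. Both KM comparisons gave −0.51 on the log2 scale (edgeR QLF test, unadjusted p = 0.0344, adjusted p = 0.437 against W, and 0.0504 and 0.987 against “0”). Its range of 567 to 719 CPM in KM rats did not overlap with that of 736 to 1319 CPM over the other 8 rats. Prkcd, a protein kinase C isoform that diacylglycerol activates, had a log2-fold change of 1.04 in KM vs W with overlapping rats (edgeR QLF test, unadjusted p = 0.0370, adjusted p = 0.445). Within each strain Prkcd was highest in the rat with the least Rasgrp2, at 53.6 CPM in KM 1, 42.9 in “0” 1 and 31.5 in W 4. Plcd1, a phospholipase C that makes diacylglycerol, had −0.63 in KM vs “0” (edgeR QLF test, unadjusted p = 0.0104, adjusted p = 0.987). Among the GTPases, Rras2, a Ras relative also called TC21, had a mean of 9.82 CPM in KM, 10.4 in “0” and 13.8 in W rats. It was lower than in W rats by 0.48 on the log2 scale in KM and 0.42 in “0” rats (edgeR QLF test, unadjusted p = 0.0198 and 0.0276, adjusted p = 0.394 and 0.656). Rasal3, a Ras-inactivating protein gene outside the rule for named genes and given here because it is the only one of its list, had 2.26 to 4.13 CPM in KM, 1.80 to 4.03 in “0” and 1.38 to 2.24 CPM in W rats and did not pass the unadjusted threshold in any comparison.

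Rap1a, the GTPase on which both exchange factors act, had a mean of 64.4 CPM in KM, 57.3 in “0” and 48.7 in W rats, with a log2-fold change of 0.41 in KM vs W (edgeR QLF test, unadjusted p = 0.00954, adjusted p = 0.344). Its KM rats did not overlap with the W rats and did overlap with the “0” rats. Rap1gap2, which turns Rap1 off, had 158 CPM in KM 1 against 96.2 and 85.5 CPM in the other KM rats, so that its mean in KM rats rests largely on that rat. Its log2-fold change in KM vs “0” was 0.50 (edgeR QLF test, unadjusted p = 0.0486, adjusted p = 0.987).

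Of 20 listed genes that ERK signalling is known to induce or that feed back on it, only Fos, Egr1 and Dusp1 could be matched, through the same table of genes that differ. These 3 had their highest means in W rats. Fos had 9.23 to 12.1 CPM in “0” rats and 18.8 to 25.7 CPM in W rats, which did not overlap. The difference was −0.98 on the log2 scale (edgeR QLF test, unadjusted p = 0.000122, adjusted p = 0.0724). Egr1 had −0.94 and the MAP kinase phosphatase gene Dusp1 −0.78 in the same comparison. Their unadjusted p were 0.00117 and 0.000567 and their adjusted p 0.212 and 0.157 in that test. Neither gene overlapped between these strains. Erythrocyte markers, matched through the same table, moved the same way, so their count is no independent evidence. The unadjusted threshold passed 5 of 5 matched identifiers, for 4 of 7 listed symbols, against 6.69% of all genes. All were lower in “0” than in W rats, at a median of −1.73 on the log2 scale. Their summed level was 1395 to 2672 CPM in KM, 1114 to 1721 in “0” and 2501 to 6631 CPM in W rats, so that “0” and W did not overlap. The part of blood in these differences was not tested. In KM vs W only Egr1 had an unadjusted p under 0.05, at −1.09 on the log2 scale (edgeR QLF test, unadjusted p = 0.0102, adjusted p = 0.352), and Fos and Dusp1 had −0.21 and −0.29. In KM vs “0” Fos was higher in KM rats by 0.76 (edgeR QLF test, unadjusted p = 0.0308, adjusted p = 0.987). KM 3 had the lowest level of all 3 genes within its strain, with 10.9 CPM of Fos, 21.4 of Egr1 and 19.3 of Dusp1. The order of the strains thus differed from that of Rasgrp3.

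**Figure D5:**
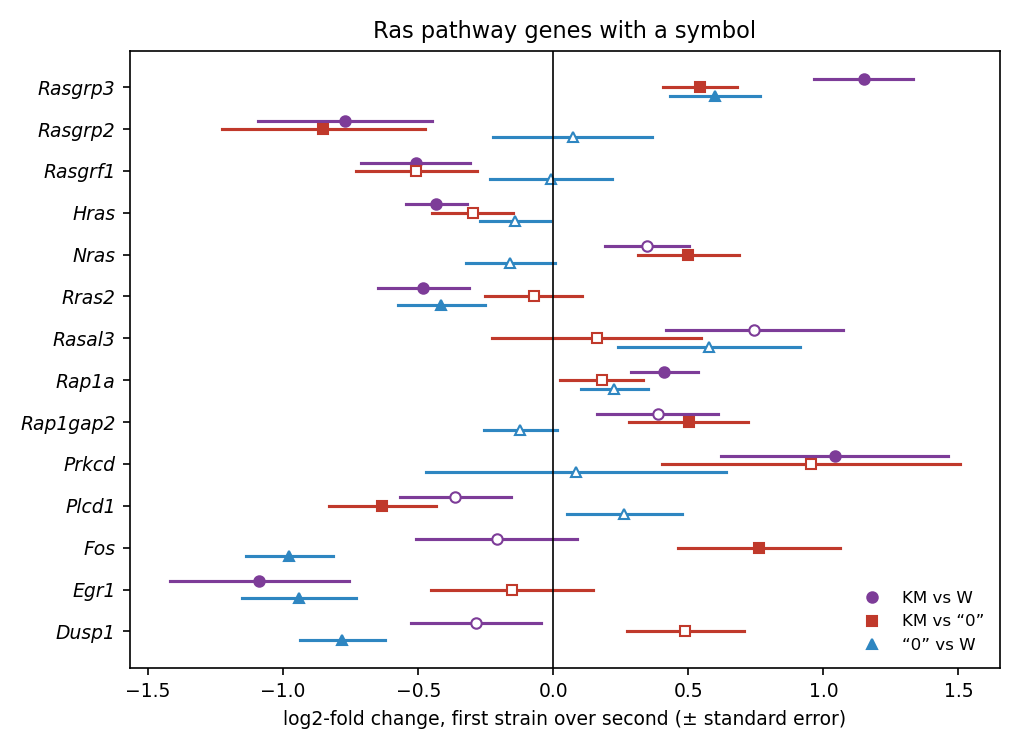
Log2-fold change ± standard error of the 14 pathway genes with a symbol, for each pair of strains. Filled symbols passed an unadjusted p of 0.05. Fos, Egr1 and Dusp1 lie left of 0 in “0” vs W, at −0.98 to −0.78, while Rasgrp3 lies right of 0 in every comparison.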

How the data were processed

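Colliculi of 3 KM, 4 “0” and 4 W rats were sequenced as directional poly(A) libraries of 75-bp single-end reads, 1 library per rat. The authors trimmed reads with Trimmomatic, mapped them with STAR to Rnor_6.0 and counted them per gene with HTSeq, although the tallies in the files bear the category names that featureCounts writes. They deposited these raw counts without normalization. Versions and the strand setting are not given in the sources used here. Groups and replicate numbers were taken from the sample titles. Reads outside genes, 16.5% to 22.7% of those tallied, and reads on several genes, 1.44% to 2.36%, entered no library size.

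Counts were compared in R 4.3.3 with edgeR 4.0.16 (TMM, quasi-likelihood F-test in its original form) in each pair of strains over all genes whose CPM averaged 1 or more. Benjamini-Hochberg adjustment covered all genes tested. Standard errors were taken from the log2-fold change and F, and log2 CPM used a prior count of 2. DESeq2 1.42.0 and other choices are given in the closing section. The procedure was tested on simulated data. The planted differences were larger than those of the 4 genes, except that of Rasgrp3 in KM vs W, and recovery of smaller ones was not tested. No pair of rats of a strain agreed within sampling noise (lowest chi-square over its degrees of freedom 18.6). Symbols for 1763 of the 32883 identifiers were read from a supplementary table of the paper. Its columns of fold changes and p values were not used. The genes and lists were chosen with earlier results of these data known. Named were the 4 genes, matched genes of the Ras GTPase and exchange factor lists, genes of the other pathway lists with an unadjusted p under 0.05 in any comparison, and for each of the 4 genes the 3 with the most similar profile. Gene lengths were not used, so levels are not compared between genes. Promoters are those of RefSeq in GRCr8.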

Additional observations from a re-analysis of the deposited data

How the results depend on the processing

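The log2-fold changes of the 4 genes kept their direction under the 7 alternatives that retained all rats (DESeq2 size factors, the DESeq2 Wald test, the newer quasi-likelihood method, no filter, filterByExpr, 1 fit of all 11 rats and the replicate block) and under scaling by library size without TMM, which was added after seeing the data. Rasgrp3 stayed under an unadjusted p of 0.05 in every comparison and every one of these, between 1.14 and 1.25 in KM vs W. For the other genes the side of that threshold changed as follows. In the fit of all 11 rats Rasgrp2 in KM vs W had −0.77 (unadjusted p = 0.0559), Hras in KM vs “0” −0.30 (unadjusted p = 0.0428), and 5 pathway genes passed in KM vs W. Without TMM Rasgrp2 had −0.66 (unadjusted p = 0.0871) in KM vs W and −0.72 (unadjusted p = 0.0925) in KM vs “0”, and Nras 0.45 (unadjusted p = 0.0226) in KM vs W. With the replicate block Nras in KM vs “0” had 0.51 (unadjusted p = 0.0654) and 781 genes passed in that comparison, against 500, and 777 did with no filter. All p in this part come from models over all genes.

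The shared replicate numbers name different animals. The mean correlation of their deviations over genes was −0.0501 for KM and W rats, 0.120 for KM and “0” rats and 0.0123 for “0” and W rats, not every pair was above 0.1, and in no comparison did every rat correlate best with its own number.

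With each rat left out in turn, Rasgrp2 ranged from −1.03 to −0.48 in KM vs W and from −1.09 to −0.56 in KM vs “0”. It changed sign in “0” vs W, from −0.10 without “0” 3 and −0.09 without W 4 and −0.03 without “0” 4 up to 0.30. Nras ranged from 0.28 to 0.42 in KM vs W, passing only without KM 2, and from 0.42 to 0.60 in KM vs “0”, and Hras from −0.49 to −0.38 and from −0.35 to −0.21. Pathway genes that passed numbered 5 to 9 in KM vs W, with 5 without KM 1, KM 2, W 1 or W 2, and 2 to 6 in KM vs “0”, with 2 without “0” 3 and 3 without KM 1. Over all genes 954 to 1831 passed in KM vs W, lowest without W 1, and 280 to 921 in KM vs “0”, lowest without “0” 3, 295 without KM 1 and highest without KM 3. The causes of these shifts were not tested. The log2 ratio of Rasgrp3 to Rasgrp2, KM minus W, stayed between 1.57 and 2.31. With a prior count of 0.5 the compensation coefficients were 45.7% for Rasgrp3, 104% for Rasgrp2, 68.5% for Hras and 146% for Nras.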
